A study of Mus musculus with 12 samples.

Results

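The genes of 9 immunoglobulin-type axonal adhesion proteins were followed in neonatal mouse cortex after deletion of histone H3.3: L1cam, Nrcam, Chl1 and Nfasc of the L1 family, Ncam1 and Ncam2 of the NCAM family, Dscam and Dscaml1 of the DSCAM family, and Alcam. They were taken by name from the gene count tables, through their Ensembl identifiers, and make up 9 of the 51912 gene lines. All 9 were found in all 12 libraries and all 9 were among the 11076 genes that passed the filter on low counts. RNA was measured in cortex of mice at postnatal day 0 in 3 groups of 4 libraries. The group labelled control has no further genotype in the labels. In dKO-N, H3f3a and H3f3b, the genes that both encode histone H3.3, were conditionally deleted with Neurod6-Cre, a driver that acts in new postmitotic excitatory neurons. In dKO-E the same genes were conditionally deleted with Emx1-Cre, which acts earlier, in the dorsal progenitors that give rise to these neurons and to cortical glia. Interneurons, microglia and vessel cells lie outside both drivers, so each knockout library also holds RNA of cells that keep H3.3. The comparisons ask how adhesion gene RNA differs when the H3.3 genes are deleted after neurons leave the cell cycle or earlier, in progenitors. The knockouts are also compared with each other.

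As background, immunoglobulin-type adhesion proteins sit in the membrane of axons, growth cones and dendrites and bind copies of themselves or partner proteins on neighbouring cells. L1 family proteins couple to the spectrin skeleton through ankyrins and act with neuropilins, plexins and other guidance receptors while cortical axons grow. NCAM carries polysialic acid, which weakens adhesion while cells migrate and axons extend, and DSCAM proteins are known for self-avoidance and spacing of neurites. Histone H3.3 is the H3 variant that enters chromatin outside DNA replication, and it accumulates in neurons after they stop dividing.

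Promoter sequence is shown for 4 of the genes, because L1cam, Nrcam and Dscam were lower in dKO-E than in control while Ncam2, the contrasting case, did not pass the test in any comparison. RefSeq's table for GRCm38.p6, the assembly that mm10 stands for, matched 7 of the 9 genes; Ncam1 and Dscaml1 had no entry. Each line below holds the 250 bases before the annotated start, read 5′ to 3′ on the strand of the gene, with matches to CCAAT, to GGGCGG (a GC box) or to CAGATG (an E box) in capitals, on either strand. The windows are chrX:73880835-73881084 (minus strand) for L1cam, chr12:44328635-44328884 (plus strand) for Nrcam, chr16:97170736-97170985 (minus strand) for Dscam and chr16:81200447-81200696 (plus strand) for Ncam2. L1cam has more than 1 start in that table, and the one farther upstream is shown; it lies inside the span that GENCODE gives the gene but outside its exons. Of the Dscam window, 17 bases overlap an annotated exon.
L1cam: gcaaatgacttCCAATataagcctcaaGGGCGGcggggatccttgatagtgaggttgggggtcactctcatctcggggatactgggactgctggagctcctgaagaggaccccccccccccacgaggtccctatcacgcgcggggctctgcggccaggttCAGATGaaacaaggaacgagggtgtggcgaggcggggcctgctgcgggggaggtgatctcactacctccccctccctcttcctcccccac
Nrcam: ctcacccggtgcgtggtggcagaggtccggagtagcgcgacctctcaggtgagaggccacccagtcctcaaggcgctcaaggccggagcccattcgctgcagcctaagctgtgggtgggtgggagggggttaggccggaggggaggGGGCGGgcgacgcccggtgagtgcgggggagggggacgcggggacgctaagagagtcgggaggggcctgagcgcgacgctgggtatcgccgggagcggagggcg
Dscam: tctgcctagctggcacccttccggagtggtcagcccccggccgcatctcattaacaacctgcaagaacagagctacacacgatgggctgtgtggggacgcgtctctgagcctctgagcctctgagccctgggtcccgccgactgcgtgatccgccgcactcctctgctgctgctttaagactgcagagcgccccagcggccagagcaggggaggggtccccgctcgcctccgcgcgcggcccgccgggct
Ncam2: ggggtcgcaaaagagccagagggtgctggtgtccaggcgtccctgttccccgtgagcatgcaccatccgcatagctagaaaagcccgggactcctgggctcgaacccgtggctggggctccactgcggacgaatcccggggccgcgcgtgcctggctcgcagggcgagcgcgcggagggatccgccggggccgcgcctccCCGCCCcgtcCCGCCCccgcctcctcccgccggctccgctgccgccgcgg

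These windows were rich in CG dinucleotides, with 12 in L1cam, 25 in Nrcam, 21 in Dscam and 32 in Ncam2, against a median of 6 over 32817 windows of 250 bases. The L1cam window held 1 CCAAT, 1 GGGCGG and 1 CAGATG, the Nrcam window 1 GGGCGG and the Ncam2 window 2 matches to GGGCGG on the opposite strand, written CCGCCC. The Dscam window held none of the motifs searched. TATAAA and CAGCTG, searched on both strands as well, were in none of the 4. Of all windows, 33.8% held CCAAT, 32.7% GGGCGG, 14.5% CAGATG, 12.4% TATAAA and 13% CAGCTG, so each of the matches is to a motif that many promoters hold. No motif found was shared by the 3 genes that were lower in dKO-E, since Dscam had no match.

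The libraries held 722080 to 3502017 counts in genes, at which 3 counts correspond to 0.857 to 4.15 CPM, counts scaled to a common library total. All CPM values below are scaled by TMM factors, which correct for differences in RNA composition. With library totals in place of these factors, the median log2 fold change of all genes in dKO-E against control moved from 0.01 to 0.14. The calls then split into 1988 higher and 701 lower, against 1120 higher and 1118 lower with TMM factors; in dKO-N against control the split was 760 higher and 554 lower, against 558 and 697, and in dKO-E against dKO-N 513 and 272, against 345 and 413. The same members passed the test in the same direction under both scalings. The targeted genes did not separate the groups as labelled. H3f3a was at 16.4 to 121 CPM in control, 22.1 to 37.9 in dKO-N and 22.9 to 30.04 in dKO-E, and the differences did not pass (log2 fold changes of -0.96 and -1.28, adjusted p = 0.494 and 0.228 by edgeR). H3f3b was at 76.7 to 142.5 CPM in control, 111 to 146 in dKO-N (0.16, adjusted p = 0.583) and 167 to 180.1 in dKO-E, where it was higher than in every control library (0.69, adjusted p = 0.000707). The libraries labelled control 1 and control 3 were below all 8 knockout libraries in H3f3a (17.7 and 16.4 CPM), and control 2 and control 4 were below all 8 in H3f3b (76.7 and 84.2 CPM). Neurod6 did separate control from both knockouts. It was at 131.7 to 153.8 CPM in control, 55.1 to 62.6 in dKO-N and 66.05 to 80.5 in dKO-E (adjusted p = 1.21e-10 and 2.14e-09 by edgeR). Emx1 overlapped between control and either knockout, at 14.4 to 21.2, 20.4 to 26.1 and 17.6 to 29.1 CPM (adjusted p = 0.245 and 0.0489 by edgeR). Counts cover whole genes, and which exons are deleted is not given in the sources used here. The groups are therefore named as labelled throughout, and the calls are also given without either pair of control libraries, the pair of control 2 and 4 having been added after the data were seen. The libraries dKO-E 3 and dKO-E 4 held 1035 and 274 counts of 4 Y-linked genes, against 0 to 3 in the other 10. They held 2 and 4 counts of Xist, an RNA of female cells, against 893 to 4604 in the other 10. Sex by these counts was therefore mixed in dKO-E alone, and that group holds more than 1 animal. Beyond this, nothing in the labels ties the libraries to different animals. The p-values therefore measure only how far these 12 libraries spread, and in dKO-N that spread could be technical. Control 1 and control 3 were at 17.7 and 16.4 CPM of H3f3a, and control 2 and control 4 at 117 and 121. The control libraries are therefore not all repeats of 1 sample. In control and dKO-E the spread could be technical in part.

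In control cortex the 9 genes differed widely in level. On the scale of CPM per kilobase of annotated exon, Ncam1 stood highest at 254.6 ± 11.9 (SD, n = 4). Dscaml1 at 82.0 ± 6.34, Chl1 at 80.6 ± 7.33 and Dscam at 71.4 ± 2.01 followed. Nrcam at 44.2 ± 2.71, Ncam2 at 42.6 ± 4.23, L1cam at 38.9 ± 2.15, Nfasc at 38.5 ± 1.29 and Alcam at 37.3 ± 2.32 formed the lower end. Neighbours in this order overlapped over the control libraries from Dscaml1 to Dscam and again from Nrcam to Alcam. The order had gaps above Dscaml1 (Ncam1 at 244 or more, Dscaml1 at 91.5 or less) and below Dscam (69.9 or more, Nrcam at 48.1 or less). The order depends on what is taken as length. Per kilobase of the whole gene, L1cam, the shortest at 42.3 kb, stood beside Ncam1 at 6.75 ± 0.374 against 7.43 ± 0.348, and Dscam, the longest at 579.9 kb, was last at 1.08 ± 0.0306. Whether reads in introns were counted is not given in the sources used here, so both scales are shown.

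**Figure D1:**
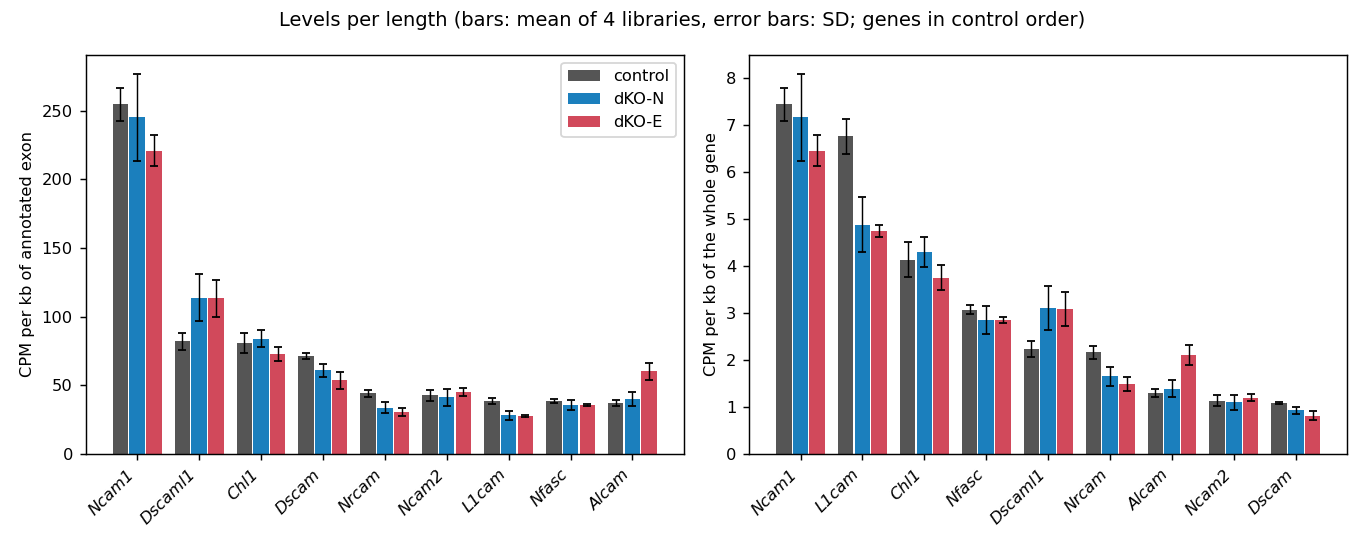
Levels of the 9 adhesion genes in each group, per kilobase of annotated exon and per kilobase of the whole gene (vertical axes, CPM per kb, linear from 0); bars are means and error bars SD over 4 libraries, with genes in control order. Ncam1 leads on the exon scale at 254.6 in control, and Alcam moves from the lowest position in control to the fourth in dKO-E at 60.3.

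In both knockouts the same pair of L1 family genes, L1cam and Nrcam, fell and Dscaml1 rose, while Dscam fell and Alcam rose in dKO-E. In bulk RNA, fewer cells of a type and less RNA per cell cannot be told apart, which applies to each gene here. In dKO-N against control, 3 of the 9 genes passed the test (edgeR's quasi-likelihood test, Benjamini-Hochberg over all genes, adjusted p under 0.05), 1 higher and 2 lower. Over all genes tested the share was 11.3%, with 5.04% higher and 6.29% lower. In dKO-E against control 5 of the 9 passed, 2 higher and 3 lower, against 20.2% of all genes, with 10.1% higher and 10.1% lower. Directly between the knockouts 1 of the 9 passed, higher in dKO-E, against 6.84% of all genes, with 3.11% higher and 3.73% lower. The 9 genes are well expressed, and abundant genes passed more often. Among the 784 genes whose average log2 CPM reached 7.86, the value of the lowest of the 9, 29.6% passed in dKO-N and 44.4% in dKO-E, with 20.5% and 34.7% lower. The share of the 9 genes that passed, 33.3% and 55.6%, is read against these values and does not set the genes apart as a group. Their median log2 fold change was -0.05 in dKO-N and -0.14 in dKO-E, against 0.01 and 0.01 over all genes and -0.04 and -0.13 over the abundant ones.

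**Figure D2:**
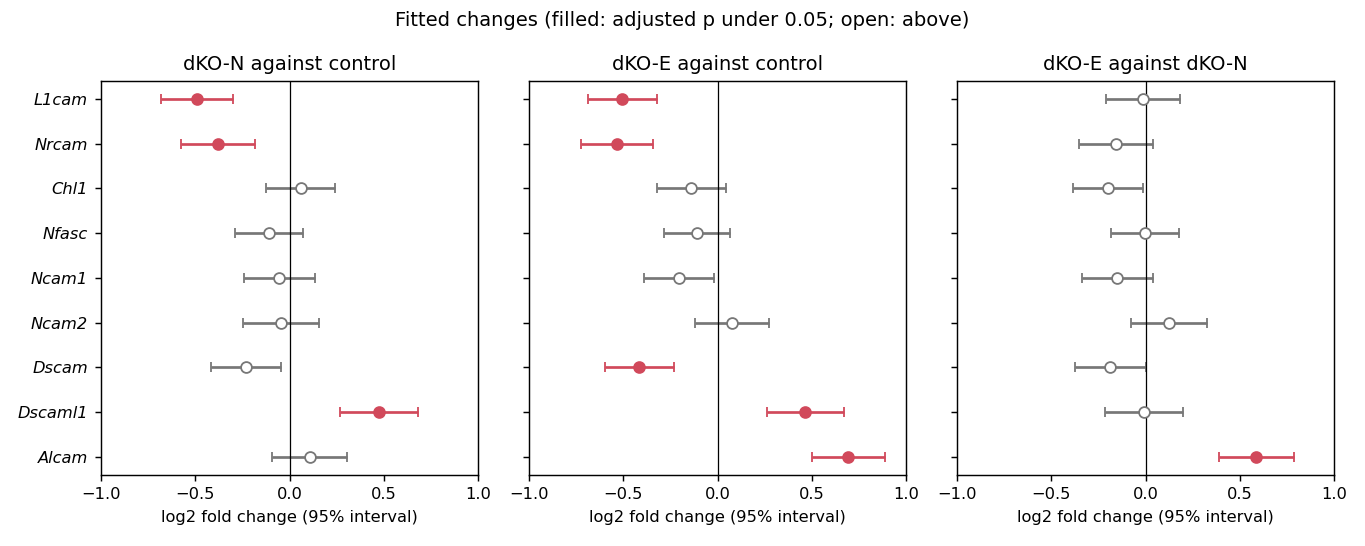
Log2 fold changes of the 9 genes with 95% confidence intervals in the 3 comparisons, with filled points for those past an adjusted p of 0.05. L1cam and Nrcam lie below 0 and Dscaml1 above 0 in both knockouts, and Alcam is apart from 0 in dKO-E and between the knockouts.

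Counted by libraries that do not overlap, in dKO-N 1 gene lay above and 3 below all control libraries, against 5.84% and 7.19% of all genes. In dKO-E 2 lay above and 5 below, against 12.5% and 13%. Between the knockouts 1 lay above and none below, against 5.4% and 4.8%. The comparisons with control share the control libraries, so a likeness of their values is partly built in.

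**Figure D3:**
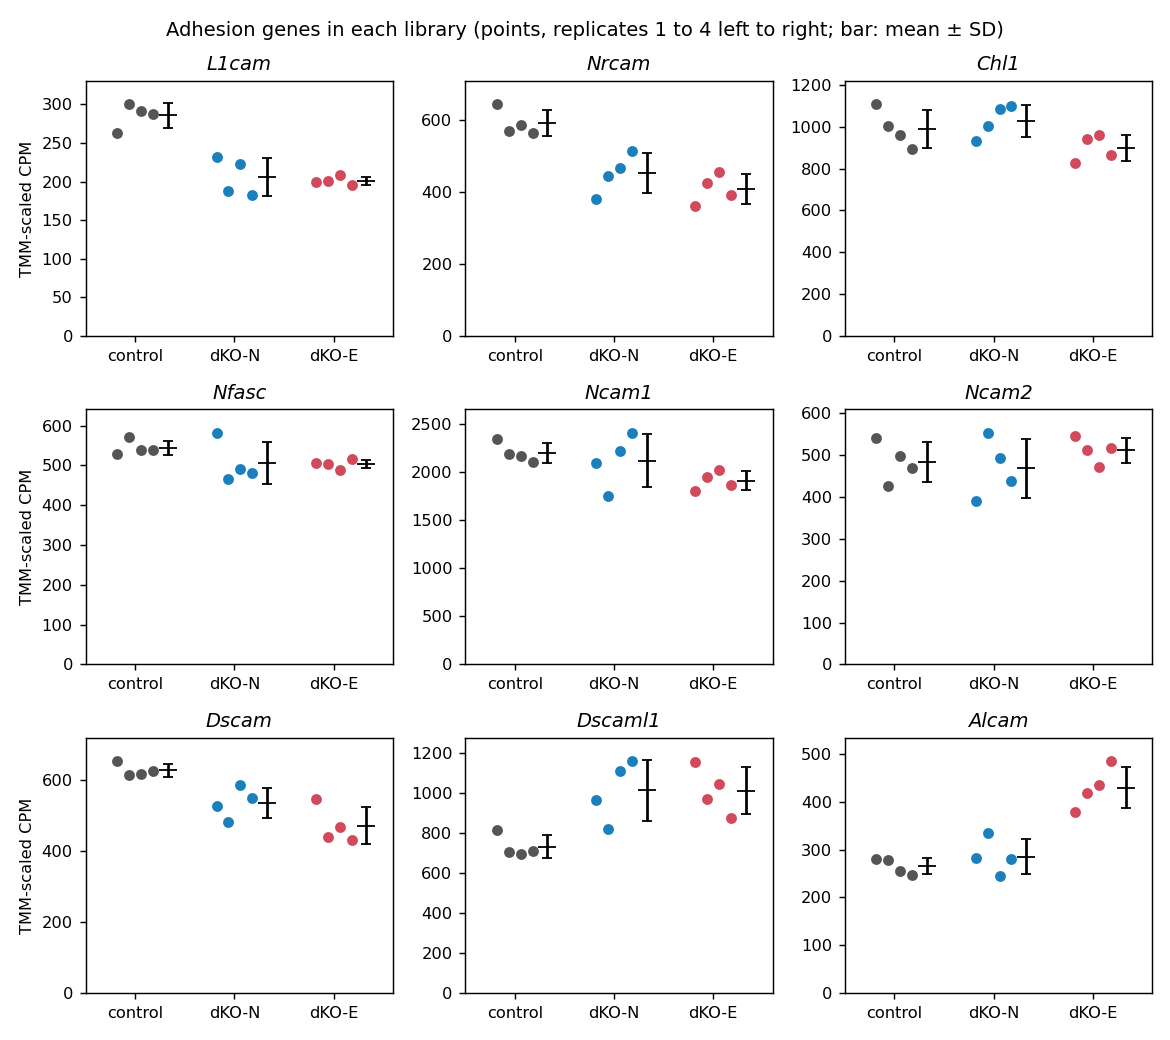
CPM (TMM-scaled) of each of the 9 genes in each of the 12 libraries, with each gene on its own vertical axis from 0; points are libraries 1 to 4 from left to right, and the black bar beside them is the mean ± SD. L1cam, Nrcam and Dscam sit lower in both knockouts than in every control library, Dscaml1 sits higher in both, and Alcam is higher in dKO-E than in the other 8 libraries.

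L1cam, the founding member of the L1 family, needed for growth and guidance of the corpus callosum and corticospinal tract, lies on the X chromosome (mm10 X, 73853778 to 73896105, minus strand). It was measured at 264, 300.3, 292 and 287 CPM in control libraries 1 to 4, at 231, 188, 223 and 182 in dKO-N and at 199, 201, 209 and 196 in dKO-E. Every knockout library was lower than every control library, and the dKO-E libraries were the closest together of the 3 groups. In dKO-N, L1cam fell by 28.8%, from 286 ± 15.8 to 206 ± 24.6 CPM (-0.49 ± 0.0945 as log2 fold change ± SE, adjusted p = 0.000263 by edgeR). In dKO-E it fell by 29.5%, to 201.1 ± 5.47 CPM (-0.50 ± 0.0902, adjusted p = 5.69e-05 by edgeR). Without control 1 and control 3 the log2 fold changes were -0.54 and -0.55, and without control 2 and control 4 they were -0.46 and -0.48. As the gene is X-linked, the dKO-E libraries with Y-linked counts were set apart: they held 209 and 196 CPM against 199 and 201 in dKO-E 1 and 2, and without them the log2 fold change was -0.52.

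Nrcam, an ankyrin-binding relative that also serves as a co-receptor in semaphorin signalling (chromosome 12, 44328885 to 44601964, plus strand), was at 643, 569.8, 584 and 564 CPM in control. It was at 381, 445, 466 and 515 in dKO-N and at 359.9, 424, 455 and 390.4 in dKO-E. The lowest control library lay above the highest library of either knockout. Nrcam fell by 23% in dKO-N, from 590.3 ± 36.2 to 452 ± 55.4 CPM (-0.38 ± 0.0963 as log2 fold change ± SE, adjusted p = 0.00634 by edgeR). It fell by 30.9% in dKO-E, to 407 ± 41 CPM (-0.53 ± 0.0947, adjusted p = 5.05e-05 by edgeR). Without control 1 and control 3 the dKO-N call was lost, at a log2 fold change of -0.33 and an adjusted p of 0.116 by edgeR, while in dKO-E it held at -0.48 (adjusted p = 0.00602). Without control 2 and control 4 both calls held, at -0.45 and -0.60.

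Chl1, the close homologue of L1 that guides thalamic and cortical axons and dendrites (chromosome 6, 103510586 to 103750211, plus strand), was among the most abundant of the 9, and neither knockout differed from control past the threshold. Control libraries ran from 893 to 1108 CPM, dKO-N libraries from 933 to 1098 and dKO-E libraries from 828 to 962, so all groups overlapped. The log2 fold change was 0.06 in dKO-N (95% interval -0.13 to 0.24) and -0.14 in dKO-E (-0.32 to 0.04). A fall as large as that of L1cam lies outside both intervals.

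Nfasc, which encodes neurofascin, the L1 family protein of the axon initial segment and node (chromosome 1, 132564690 to 132741797, minus strand), was at 528 to 570.3 CPM in control. It was at 466 to 582 CPM in dKO-N, overlapping control, and at 489 to 515 in dKO-E, where all libraries lay below control by a small margin. The log2 fold change was -0.11 in both, with 95% intervals of -0.29 to 0.07 and -0.29 to 0.06, and neither passed. Within the L1 family, then, 2 of 4 genes fell in each knockout and the other 2 had intervals that reach 0. Whether the genes differ from each other in their change was not tested.

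Ncam1, the neural cell adhesion molecule and main carrier of polysialic acid in brain (chromosome 9, 49502136 to 49798925, minus strand), was the most abundant of the 9. It was at 2352, 2194, 2166 and 2111 CPM in control, at 2102, 1756, 2222 and 2414 in dKO-N and at 1805, 1955, 2030 and 1865 in dKO-E. The dKO-N libraries were spread on both sides of control, whereas all 4 dKO-E libraries lay below it. The log2 fold change was -0.05 in dKO-N (95% interval -0.24 to 0.13, adjusted p = 0.801 by edgeR) and -0.20 in dKO-E (-0.39 to -0.02, adjusted p = 0.116 by edgeR). In a fit of control and dKO-E libraries alone Ncam1 passed in dKO-E, at the same log2 fold change of -0.20 and an adjusted p of 0.0232. An antisense gene, Gm11149, overlaps Ncam1 exons over 417 bases but held 44 counts in all 12 libraries together.

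Ncam2, also called OCAM, a paralogue best known from olfactory axons (chromosome 16, 81200697 to 81626828, plus strand), overlapped in all groups. It ran from 426 to 539 CPM in control, from 391 to 553 in dKO-N and from 471 to 544 in dKO-E. The log2 fold change was -0.05 in dKO-N (95% interval -0.25 to 0.16) and 0.08 in dKO-E (-0.12 to 0.27). Its promoter, shown above, has the most CG dinucleotides of the 4.

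Dscam, a receptor for self-recognition and for netrin (chromosome 16, 96590840 to 97170752, minus strand), was tightly grouped in control at 654, 615, 618.5 and 626 CPM. It was at 528, 482, 586 and 549 in dKO-N and at 547, 440, 469 and 431 in dKO-E. All knockout libraries lay below all control libraries. The fall of 25% in dKO-E passed the test (472 ± 52.5 against 628 ± 17.7 CPM, log2 fold change -0.42, SE 0.0902, adjusted p = 0.000733 by edgeR). In dKO-N the log2 fold change of -0.23 (95% interval -0.42 to -0.04) did not pass after adjustment over all genes (adjusted p = 0.109 by edgeR). Without control 1 and control 3 the value in dKO-E was -0.40 (adjusted p = 0.0182 by edgeR), without control 2 and control 4 it was -0.45 (0.00822), and without dKO-E 3 and dKO-E 4 it was -0.36 with an adjusted p of 0.0474, the closest to the threshold over the alternatives.

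Dscaml1, the paralogue of Dscam (chromosome 9, 45426628 to 45753712, plus strand), went the other way. It was at 815, 703, 693 and 711 CPM in control, at 965, 819.7, 1110 and 1158 in dKO-N and at 1153, 971, 1042 and 873 in dKO-E. Every knockout library was above every control library, though dKO-N 2 exceeded the highest control library by little. Dscaml1 rose by 38.8% in dKO-N, from 731 ± 56.5 to 1013 ± 153 CPM (0.47 ± 0.102 as log2 fold change ± SE, adjusted p = 0.00111 by edgeR). It rose by 38.1% in dKO-E, to 1010 ± 118 CPM (0.47 ± 0.101, adjusted p = 0.000753 by edgeR). Without control 1 and control 3 the log2 fold changes were 0.51 and 0.51. Without control 2 and control 4 the dKO-N call was lost, at 0.41 with an adjusted p of 0.0615 by edgeR, and the dKO-E call held at 0.41 (adjusted p = 0.0399). Per kilobase of exon, Dscaml1 and Dscam stood at 82.0 and 71.4 CPM in control, at 114 ± 17.2 and 60.9 ± 4.92 in dKO-N and at 113 ± 13.2 and 53.6 ± 5.97 in dKO-E.

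Alcam, also known as CD166, which binds itself and the immune receptor CD6 and marks subsets of growing axons (chromosome 16, 52248996 to 52454074, minus strand), rose in dKO-E. It was at 280.4, 279, 256 and 248 CPM in control, at 282, 335, 244 and 281 in dKO-N and at 379.5, 419, 435 and 485 in dKO-E. The dKO-E libraries lay above the other 8, while dKO-N and control overlapped. The rise was 61.6% (429.6 ± 43.7 against 266 ± 16.5 CPM, log2 fold change 0.69, SE 0.0944, adjusted p = 5.3e-07 by edgeR), the largest change of any of the 9 genes in these 3 comparisons. In dKO-N the log2 fold change was 0.11 (95% interval -0.09 to 0.31, adjusted p = 0.582 by edgeR). Without control 1 and control 3 the dKO-E value was 0.71, without control 2 and control 4 it was 0.67, and without dKO-E 3 and dKO-E 4 it was 0.58.

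Alcam was also the gene that separated the knockouts. Tested directly, it was 50.1% higher in dKO-E than in dKO-N (0.59 ± 0.0975 as log2 fold change ± SE, adjusted p = 0.000259 by edgeR) and ranked 27th by p among all 11076 genes. Without dKO-E 3 and dKO-E 4 this became 0.48 with an adjusted p of 0.0296. The other 8 genes did not pass between the knockouts. L1cam at -0.01 (95% interval -0.21 to 0.18), Nfasc at -0.00 (-0.18 to 0.18) and Dscaml1 at -0.01 (-0.21 to 0.20) were centred near 0. Nrcam at -0.16 (-0.35 to 0.04), Ncam1 at -0.15 (-0.34 to 0.04), Chl1 at -0.20 (-0.38 to -0.01) and Dscam at -0.19 (-0.37 to 0.00) were lower in dKO-E, and Ncam2 at 0.12 (-0.08 to 0.33) higher, none past the threshold. Dscam passed against control in dKO-E and not in dKO-N, and the difference between the knockouts itself did not pass (adjusted p = 0.229 by edgeR).

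**Figure D4:**
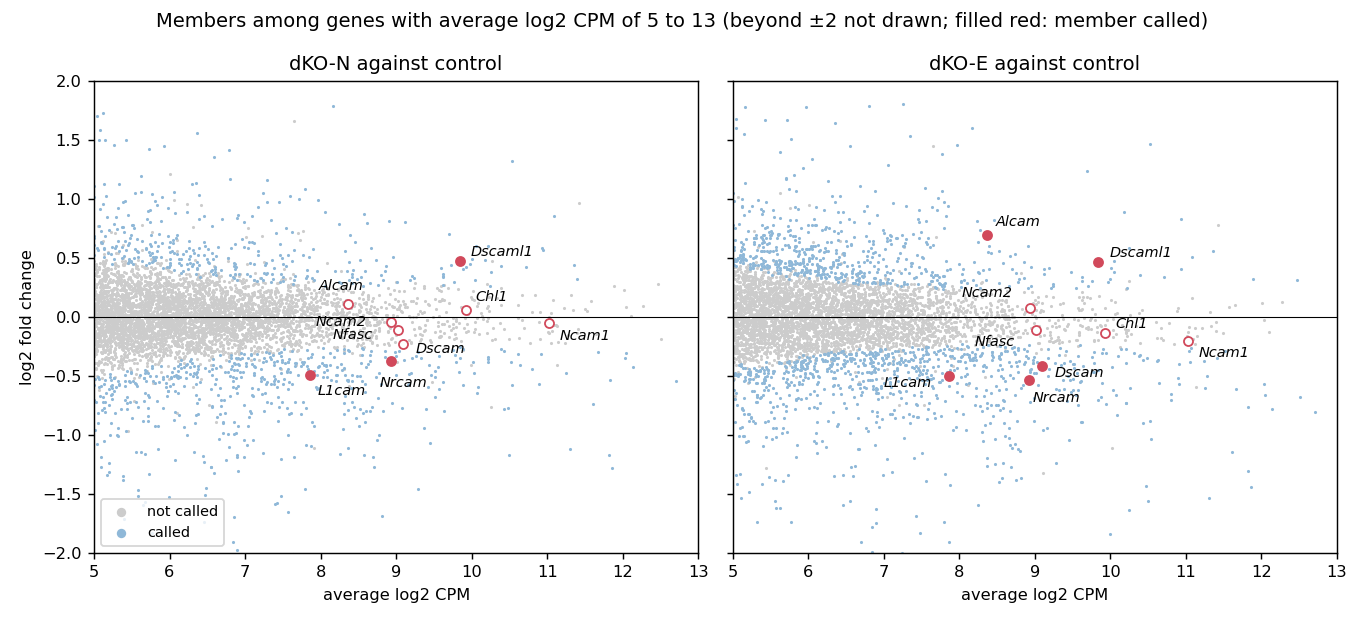
Log2 fold change against average log2 CPM in dKO-N and dKO-E, with the 9 genes named and circled in red (filled where past the test) over the other tested genes between 5 and 13 on the horizontal axis, grey where not past the test and blue where past it; 11 and 15 genes beyond ±2 are not drawn. The 9 genes lie at the abundant end, and Alcam in dKO-E is the highest of them.

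The genes around these proteins in their pathways were read from lists by role. Their counts stand beside 11.3% of all genes called in dKO-N and 20.2% in dKO-E, and 29.6% and 44.4% of the abundant genes. Nothing particular to a list is read from its counts. Among 15 genes of ankyrins, spectrins and other cytoplasmic linkers, which tie L1 family proteins to the membrane skeleton, 1 rose and 4 fell in dKO-N and 1 rose and 5 fell in dKO-E, with medians of -0.07 and -0.16 on the log2 scale against 0.01 for all genes. Ank2, the ankyrin that binds L1 proteins along axons, fell by 0.57 in dKO-E (adjusted p = 2.21e-05 by edgeR). Its fall of 0.31 in dKO-N (adjusted p = 0.0281 by edgeR) held as a call in 9 of 19 alternatives. Among the losses were those on leaving out control 1, 2 or 3 or dKO-N 1 or 2 (adjusted p from 0.0504 to 0.104). Sptbn1, a beta spectrin, fell by 0.33 in each, a call that was lost in dKO-N without control 1 and control 3 (adjusted p = 0.0546 by edgeR) or control 2 and control 4 (0.0598). Rdx, which encodes radixin, a linker of membrane proteins to actin, rose by 0.61 in dKO-E, a call lost when all libraries were thinned to the shallowest total (0.43, adjusted p = 0.0515 by edgeR).

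Among 11 tested genes of polysialic acid synthesis and NCAM signalling, 1 rose and 3 fell in dKO-N and 2 rose and 4 fell in dKO-E. Both polysialyltransferase genes fell in dKO-E: St8sia2 from 377 ± 18 to 291 ± 25 CPM (log2 fold change -0.37, adjusted p = 0.00653 by edgeR) and St8sia4 from 100.5 ± 17.6 to 67.0 ± 8.55 CPM (-0.60, adjusted p = 0.00387). Neither passed in dKO-N. The direct difference between the knockouts passed for St8sia2 (-0.34, adjusted p = 0.0382 by edgeR), but that call held in only 5 of 18 alternatives. Among the losses were those on leaving out dKO-N 3, dKO-N 4, dKO-E 1, dKO-E 3 or dKO-E 4 (adjusted p from 0.0627 to 0.322). In dKO-E against control, the St8sia4 call was lost without control 1 and control 3 (adjusted p = 0.0804 by edgeR). That of St8sia2 against control was lost without dKO-E 3 and dKO-E 4 (0.0567) or control 2 and control 4 (0.0584). Gap43, a growth cone protein that acts with NCAM, fell in both knockouts (log2 fold changes of -0.77 and -0.57), and Fgfr1, the receptor that NCAM and L1 engage, rose (0.54 and 0.62). The Fgfr1 rise was lost without control 1 and control 3, at log2 fold changes of 0.24 and 0.33, and in dKO-N also without control 1 alone (0.43, adjusted p = 0.0554 by edgeR).

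Of 16 genes of guidance receptors and netrin, 3 rose and 3 fell in dKO-N and 4 rose and 3 fell in dKO-E. Unc5c, a repulsive netrin receptor, fell from 661 ± 121 CPM to 335 ± 54 in dKO-N and 304 ± 37.4 in dKO-E, and Dcc, the netrin receptor that can pair with DSCAM, rose in both and by 0.85 in dKO-N. Nrp2, a semaphorin co-receptor that pairs with Nrcam, rose from 75.7 ± 33 to 267 ± 39.5 CPM in dKO-E (1.80 ± 0.405 as log2 fold change ± SE, adjusted p = 0.012 by edgeR), and this call was lost without control 1 and control 3 (adjusted p = 0.0537), control 2 and control 4 (0.115) or dKO-E 3 and dKO-E 4 (0.0758). Sheddases cut adhesion proteins from the membrane. Of 9 tested genes on their list none rose, and 1 fell in dKO-N and 3 in dKO-E, beside 6.29% and 10.1% of all genes. The 1 in dKO-N was Adam22, a family member without protease activity, and that call held in 7 of 19 alternatives. In dKO-E the protease genes Mmp24 and Mmp16 fell by 0.66 and by 0.41 on the log2 scale beside Adam22; the calls of Mmp16 (adjusted p = 0.125 by edgeR) and Adam22 (0.0863) were lost without control 1 and control 3, and that of Adam22 also with library totals (0.0539) or without dKO-E 3 and dKO-E 4 (0.0543).

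Of 27 other immunoglobulin-type adhesion genes tested, 3 rose and 11 fell in dKO-N and 5 rose and 11 fell in dKO-E. Abundant genes as a whole were also called lower more often than higher, for dKO-N (20.5% against 9.06%) and dKO-E (34.7% against 9.69%). Over all genes tested 6.29% and 10.1% were lower. The list was not limited to abundant genes, so neither share matches it in level. Nothing particular to this list is read from its counts. Lsamp, an IgLON protein of limbic and cortical neurons, fell from 6243 ± 420 CPM to 2569 ± 224 and 2293 ± 249 (log2 fold changes -1.28 and -1.45). Cntn6, a contactin, had log2 fold changes of -1.98 and -1.75. These falls were larger than that of any of the 9 genes.

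**Figure D5:**
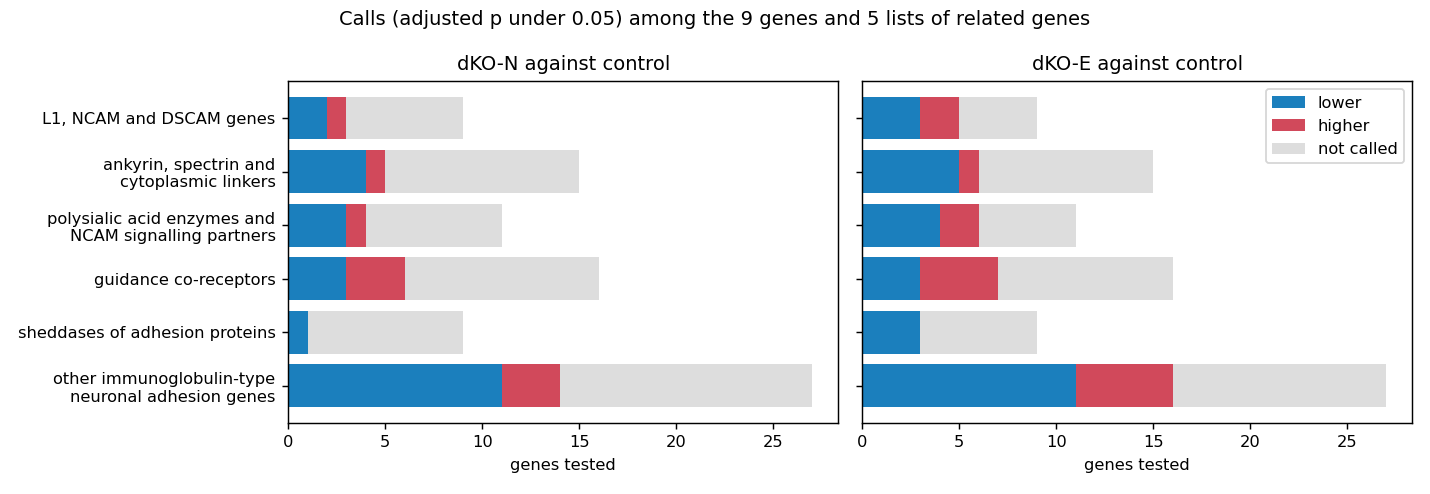
Number of tested genes (horizontal axis) that were higher, lower or not past the test among the 9 genes and in each of the 5 lists of related genes, for dKO-N and dKO-E against control. In the list of other immunoglobulin-type adhesion genes, which was not limited to abundant ones, 11 of 27 are lower in each knockout. Among all abundant genes 20.5% and 34.7% were lower, and among all genes tested 6.29% and 10.1%.

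Markers of cell types moved with the groups. Beside the falls of L1cam, Nrcam and Dscam, the summed level of 10 excitatory neuron markers ran from 3027 to 3448 CPM in control, 2125 to 2741 in dKO-N and 1502 to 1944 in dKO-E. That of 10 radial glia markers was 1106 to 1241, 1339 to 1928 and 1273 to 1363 CPM (Sox2 at 0 in all libraries), and that of 8 intermediate progenitor markers 41.3 to 55.8, 100 to 108 and 69.9 to 90.3 (Neurog1 at 0). Beside the rise of Alcam, 7 oligodendrocyte precursor markers summed to 269 to 344 CPM in control, 182 to 389 in dKO-N and 413 to 535 in dKO-E. Of the 6 tested, Lhfpl3, the most abundant, rose in dKO-E by 0.81 on the log2 scale, Pdgfra (-0.71) and Gpr17 (-1.64) fell, and the median was -0.56, so the sum and most members differ in sign. The 8 astrocyte markers summed to 217 to 259, 202 to 312 and 253 to 361. The 6 meningeal markers were at 9.05 to 14.5, 12.2 to 21.3 and 8.95 to 89.5 CPM; the highest value was in dKO-E 1, the dKO-E library with the lowest Alcam. Interneuron markers overlapped between the groups at 319 to 367, 294 to 362 and 272 to 419 CPM. The sum of Cajal-Retzius markers was lower in dKO-E, at 243 to 362 against 422 to 491 in control and 374 to 499 in dKO-N. Its members were mixed: of the 4 tested in dKO-E against control, Ndnf and Reln fell and Ebf3 rose. The sum of microglial markers was higher at 9.89 to 16.5, 17.7 to 27.2 and 19.2 to 26.8, but these are low levels. Only 2 of the 8 passed the count filter, with none called in dKO-N and Csf1r called higher in dKO-E. Endothelial and mural markers were at 105 to 116, 76.2 to 98.8 and 77.0 to 108. Striatal and thalamic markers overlapped at 39.9 to 60.9, 32.7 to 71.2 and 36.3 to 67.3 CPM. The part of these cell types in the changes of the adhesion genes was not tested.

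The genes whose levels followed each member most closely over the 12 libraries, by Pearson r of log2 CPM among 9304 genes, are given as a description. All points share depth and group, so part of any r comes from the group differences. L1cam went with Tnr, the extracellular matrix protein tenascin-R, and with Chd3, a chromatin remodeler, both at 0.975, and Nrcam with Celf2, an RNA-binding protein, at 0.973. Ncam1 went with Tmem108 at 0.979 and Kalrn at 0.957, and Dscam with Trpm3, a cation channel, at 0.949. Dscaml1 went with Tead1, a transcription factor of the Hippo pathway, at 0.975 and Cdkal1 at 0.965. Alcam went with Tspan14, a tetraspanin, at 0.967 and App, the amyloid precursor protein, at 0.95. Chl1 went with Nlgn1, a neuroligin, at 0.943, Ncam2 with Btg1 at 0.921 and Nfasc with Zfp512b at 0.874.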

How the data were processed

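RNA of 12 libraries was depleted of ribosomal RNA and sequenced by ClickSeq, which adds adapters to terminated cDNA by click chemistry, per the labels' protocols. The authors deposited whole-number counts per gene, without normalization; per the submitters' processing notes the tools were HTSeq, STAR and UMI-tools and the build was mm10. For strand, introns and versions the sources used here give nothing. Of the deposited counts of each library, with its 5 summary lines included, 85.2% to 88.9% were in genes. The summary line for unaligned reads held 0.0%, so this is not a share of all reads sequenced. The 5 summary lines stayed out of the tests. Symbols and loci came from GENCODE M21 (mm10; 99.5% of identifiers).

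Counts were tested with edgeR 4.0.16 (R 4.3.3; TMM, filterByExpr with a minimum count of 10, robust quasi-likelihood fit of all 12 libraries by group, 9 residual degrees of freedom, Benjamini-Hochberg over 11076 genes, threshold 0.05), after a check on simulated counts. Chi-square per degree of freedom between replicates was 1.62 to 5.99, so each library counted as 1 sample. Alternatives used limma 3.58.1, DESeq2 1.42.0 and the other settings named in the closing section. Named related genes are up to 4 per list and comparison with the largest change past the test and an average log2 CPM of at least 3; of these, the text gives examples. The 9 genes and all lists were chosen with earlier results of these data known. The other assays of the series were not analysed here.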

Additional observations from a re-analysis of the deposited data

Results flagged for a closer look

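Within the control group, the Dscaml1 level of control 1 stood apart, at 815 CPM against 693 to 711 CPM in the other 3 libraries. Its gap to the nearest library was 0.85 of the group's range, above Dixon's 95% critical value for 4 samples. Among the 27 combinations of gene and group looked at, this was the 1 that exceeded it, and chance flags about 1 in 20. Control 1 was still below every knockout library of Dscaml1, so the groups do not overlap with it or without it.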

How the results depend on the processing

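The 9 genes' calls were recomputed with library totals, DESeq2, limma-voom, no count filter, a minimum count of 30, no robust estimation, only the groups compared, a replicate block, thinning to 722080 counts, each library left out, and the doubted pairs left out (control 1 and 3, dKO-E 3 and 4, and, chosen after seeing the data, control 2 and 4). The 3, 5 and 1 genes called in dKO-N, dKO-E and between the knockouts kept direction and call throughout, except in dKO-N Nrcam without control 1 and 3 (-0.33, adjusted p = 0.116) and Dscaml1 without control 2 and 4 (0.41, adjusted p = 0.0615); Ncam1 in dKO-E gained a call with only the groups compared (-0.20, adjusted p = 0.0232). The cause was not tested.

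Uncalled values changed sign, on the log2 scale. In dKO-N with library totals, Ncam1 was 0.0094 and Ncam2 0.0216, and without control 1 and 3 Ncam2 was 0.0603, and without control 2 and 4 Chl1 was -0.019; leaving out 1 library gave -0.126 to 0.0272 for Ncam1 and -0.138 to 0.0241 for Ncam2. In dKO-E with library totals, Nfasc was 0.0171, and without control 2 and 4 Ncam2 was -0.0351. Between the knockouts L1cam, Nfasc and Dscaml1 were 0.0516, 0.0614 and 0.0611 with library totals, 0.0175, 0.0336 and 0.0245 with no filter, and 0.0463, 7e-04 and 0.0211 after thinning. Nfasc and Dscaml1 were 0.0075 and 0.003 with a minimum count of 30, and 0.0056 and 0.0665 without dKO-E 3 and 4. L1cam and Nfasc were 0.0012 and 0.0058 with limma-voom, and Nfasc 0.0019 with only the groups compared. Leaving out 1 library gave -0.0791 to 0.0433 for L1cam, -0.0373 to 0.0689 for Nfasc and -0.0987 to 0.0696 for Dscaml1.

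The counts of all genes called, 1255, 2238 and 758, moved by over 1.5 times after thinning (769, 1259 and 315), without control 1 and 3 (756 in dKO-N and 1215 in dKO-E), without control 2 and 4 (700 and 1367) and without dKO-E 3 and 4 (1225 in dKO-E and 199 between the knockouts). The last comparison gave 488 with only its groups, 300 without dKO-N 4, 476 without dKO-E 3 and 421 without dKO-E 4. With library totals, the median of all genes in dKO-E was 0.1352. Of 44 named calls of related genes, 21 held in every alternative, 23 were lost in some and 0 changed sign.

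Libraries with the same number did not deviate together (r from -0.124 to 0.013 over 12 pairs, with 1 of 24 best with its own number). With the replicate block the same 3, 5 and 1 genes were called, and 500 genes in all between the knockouts; Nrcam in dKO-N was -0.39 (adjusted p = 0.0131).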
